A study of Homo sapiens with 18 samples.

Results

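The tricarboxylic acid (TCA) cycle enzymes and isocitrate dehydrogenases were followed across 3 head and neck squamous cell carcinoma (HNSCC) cell lines with and without hepatocyte growth factor (HGF). They are the 9 genes CS, IDH1, IDH2, IDH3A, OGDH, SUCLA2, FH, MDH1 and MDH2, taken by gene symbol from the 19901 genes of the count table. All 9 genes passed the filter on low counts, and their counts ranged from 858 for IDH2 to 18269 for MDH1 in single libraries.

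mRNA was sequenced from Detroit 562, FaDu and SCC-9, established HNSCC lines that come from a metastasis of a pharyngeal tumor, a primary tumor of the hypopharynx and a primary tumor of the tongue. In each line, 3 libraries were made from cells left untreated (control) and 3 from cells given 50 ng/mL HGF, the ligand of the Met receptor tyrosine kinase, which makes 18 libraries. Treatment lasted 16 h by the sample records and the methods, whereas the series record gives 48 h. No other agent or genetic change was part of the design. Detroit 562 and FaDu were grown in MEM-α. SCC-9 was grown in DMEM F12 with hydrocortisone, so a difference between SCC-9 and either other line cannot be told apart from a difference of medium. Each line is a single tumor's culture, and replicates are libraries of that line.

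The TCA cycle oxidizes acetyl groups to CO2 in mitochondria and feeds electrons to the respiratory chain. Several of its steps have a cytosolic counterpart: IDH1 and MDH1 work in the cytosol, IDH2 and MDH2 in the mitochondrial matrix, and citrate and malate pass between both compartments through carriers. IDH1 and IDH2 use NADP and supply NADPH, whereas the IDH3 complex, of which IDH3A is the catalytic subunit, uses NAD and drives the cycle itself. In tumors, cycle intermediates also serve as building blocks for lipids, amino acids and nucleotides.

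In the order of the reactions, with positions from the count table (GRCh38), citrate synthase, CS, lies on the minus strand at chr12:56271699-56300392. The isocitrate dehydrogenases lie at chr2:208236227-208266074 (IDH1, minus strand), chr15:90083045-90102504 (IDH2, minus strand) and chr15:78131498-78171949 (IDH3A, plus strand). OGDH, the first enzyme of the 2-oxoglutarate dehydrogenase complex, lies at chr7:44606572-44709066 on the plus strand. SUCLA2, the ADP-forming subunit of succinyl-CoA ligase, lies on the minus strand at chr13:47745736-48037968, and FH, fumarate hydratase, on the minus strand at chr1:241497603-241519761. Malate dehydrogenases 1 and 2 lie on the plus strand at chr2:63588609-63607197 (MDH1) and chr7:76048051-76067508 (MDH2). Reads were counted over the whole extent of a gene, exons and introns together. CS overlaps RP11-977G19.10 on the same strand, so a read in the overlap was counted for both. RP11-977G19.10 had 3043 to 5230 counts per library and CS had 9666 to 15975, and CS values are therefore uncertain by up to the neighbour's counts. Named pseudogenes exist for CS (2), SUCLA2 (3), FH (1) and MDH1 (2), and reads from these copies may have been placed on either.

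IDH1 and IDH3A showed the largest fitted differences between HGF and control in Detroit 562, in opposite directions. Their promoters are therefore shown as the 250 bases before the transcription start, from RefSeq (GRCh38.p14), 5′ to 3′ on the gene's strand, at chr2:208255072-208255321 (minus strand) and chr15:78149112-78149361 (plus strand). Capitals mark a match to TGACNNNGC, the core letters of the antioxidant response element that NRF2 binds, in IDH1, and to the motif of NRF1, a regulator of nuclear genes for mitochondria, in IDH3A.
IDH1: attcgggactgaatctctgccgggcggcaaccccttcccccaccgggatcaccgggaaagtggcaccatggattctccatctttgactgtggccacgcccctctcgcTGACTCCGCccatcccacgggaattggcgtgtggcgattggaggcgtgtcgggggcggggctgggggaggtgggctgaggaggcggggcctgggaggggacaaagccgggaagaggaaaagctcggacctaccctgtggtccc
IDH3A: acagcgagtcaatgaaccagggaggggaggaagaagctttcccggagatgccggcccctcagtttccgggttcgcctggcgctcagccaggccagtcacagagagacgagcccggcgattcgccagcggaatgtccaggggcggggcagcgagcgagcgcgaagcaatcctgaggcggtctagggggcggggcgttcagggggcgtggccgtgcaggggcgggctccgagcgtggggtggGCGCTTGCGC

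RefSeq entries were found for 8 of the 9 genes, with 2 entries each for IDH1 and MDH1. Besides these 2 motifs, ETS (CCGGAAGT), the E-box (CACGTG) and ESRRA (TCAAGGTCA) were searched on both strands of windows that add the 50 bases after the start, and none of the 5 motifs lies within another. The motifs were chosen after the values were seen. Matches were found in 1 of the 2 IDH1 windows (NRF2), in IDH3A and SUCLA2 (NRF1) and in MDH2 (2 ETS matches). Among 35116 promoter windows, 13.3% held the NRF2 motif, 5.78% the NRF1 motif, 4.14% the ETS motif, 7.26% the E-box and 0.353% the ESRRA motif. A match describes the letters only.

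The libraries held 35304770 to 44003970 counts each (median 40138919). Of all genes, 15475 had enough reads to be tested. In each line all 10 epithelial markers averaged at least 1 CPM (counts scaled to the library's total), and their summed level was 4550 to 17100 CPM over the libraries. KRT14 was close to that cut in Detroit 562 (0.852 to 1.43 CPM), against 205 to 532 CPM in FaDu and 2140 to 3410 CPM in SCC-9. Summed leucocyte markers were 20.4 to 65.6 CPM, mostly of CD68, a lysosomal gene that other cells also use (16.8 to 57.9 CPM), and CD14 reached 9.81 CPM, while PTPRC, CD3E, LYZ and CD79A were at 0.365 CPM or less in every library. Summed endothelial markers reached at most 8.34 CPM, and summed fibroblast markers at most 99.4 CPM, in SCC-9. In Detroit 562, summed epithelial markers were 6470 to 8880 CPM in control and 4550 to 6630 CPM with HGF, summed fibroblast markers 29.8 to 54.3 and 15 to 27.6 CPM, and summed leucocyte markers 20.4 to 40.8 and 37.6 to 56.5 CPM. The part of these shifts in the results below was not tested. RNA came from all cells of a well, so fewer cells with a transcript and fewer transcripts per cell cannot be told apart. The methods state that the experiment was repeated, and the labels do not say which libraries belong to which run.

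The 9 genes were first placed by their level in each line. Levels are TMM-normalized CPM, and to compare genes they were divided by the exon length of the MANE Select transcript (CPM per kb). MDH1, MDH2 and CS had the 3 highest values in each line on this scale. In untreated Detroit 562, MDH1 stood first with 303 ± 34.4 CPM per kb (SD, n = 3), ahead of CS with 128 ± 5.18 and MDH2 with 128 ± 2.95, and CS and MDH2 overlapped. In untreated FaDu, MDH1 with 158 ± 9.98 and MDH2 with 152 ± 4.95 CPM per kb overlapped, and both stood above CS. SCC-9 showed the same overlap at 113 ± 5.82 CPM per kb for MDH2 and 110 ± 2.15 for MDH1.

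The lowest place was taken by IDH3A in untreated Detroit 562 (15 ± 1.61 CPM per kb) and by IDH2 in untreated FaDu (15 ± 3.92) and SCC-9 (8.93 ± 0.376). Neighbours in the order whose libraries overlapped were SUCLA2, IDH2 and OGDH in untreated Detroit 562 (31.7, 30.6 and 29.8 CPM per kb) and IDH1 and FH in untreated FaDu (58.4 and 50.8 CPM per kb). The order depended on the length used. With the union of all annotated exons, MDH1 moved to rank 4 in untreated SCC-9 and FH from rank 4 to rank 7 in untreated Detroit 562. The lowest place then went to SUCLA2 in each untreated line. IDH3A was at rank 8 in untreated Detroit 562, and IDH2 at rank 6 in untreated FaDu and rank 7 in untreated SCC-9.

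**Figure D1:**
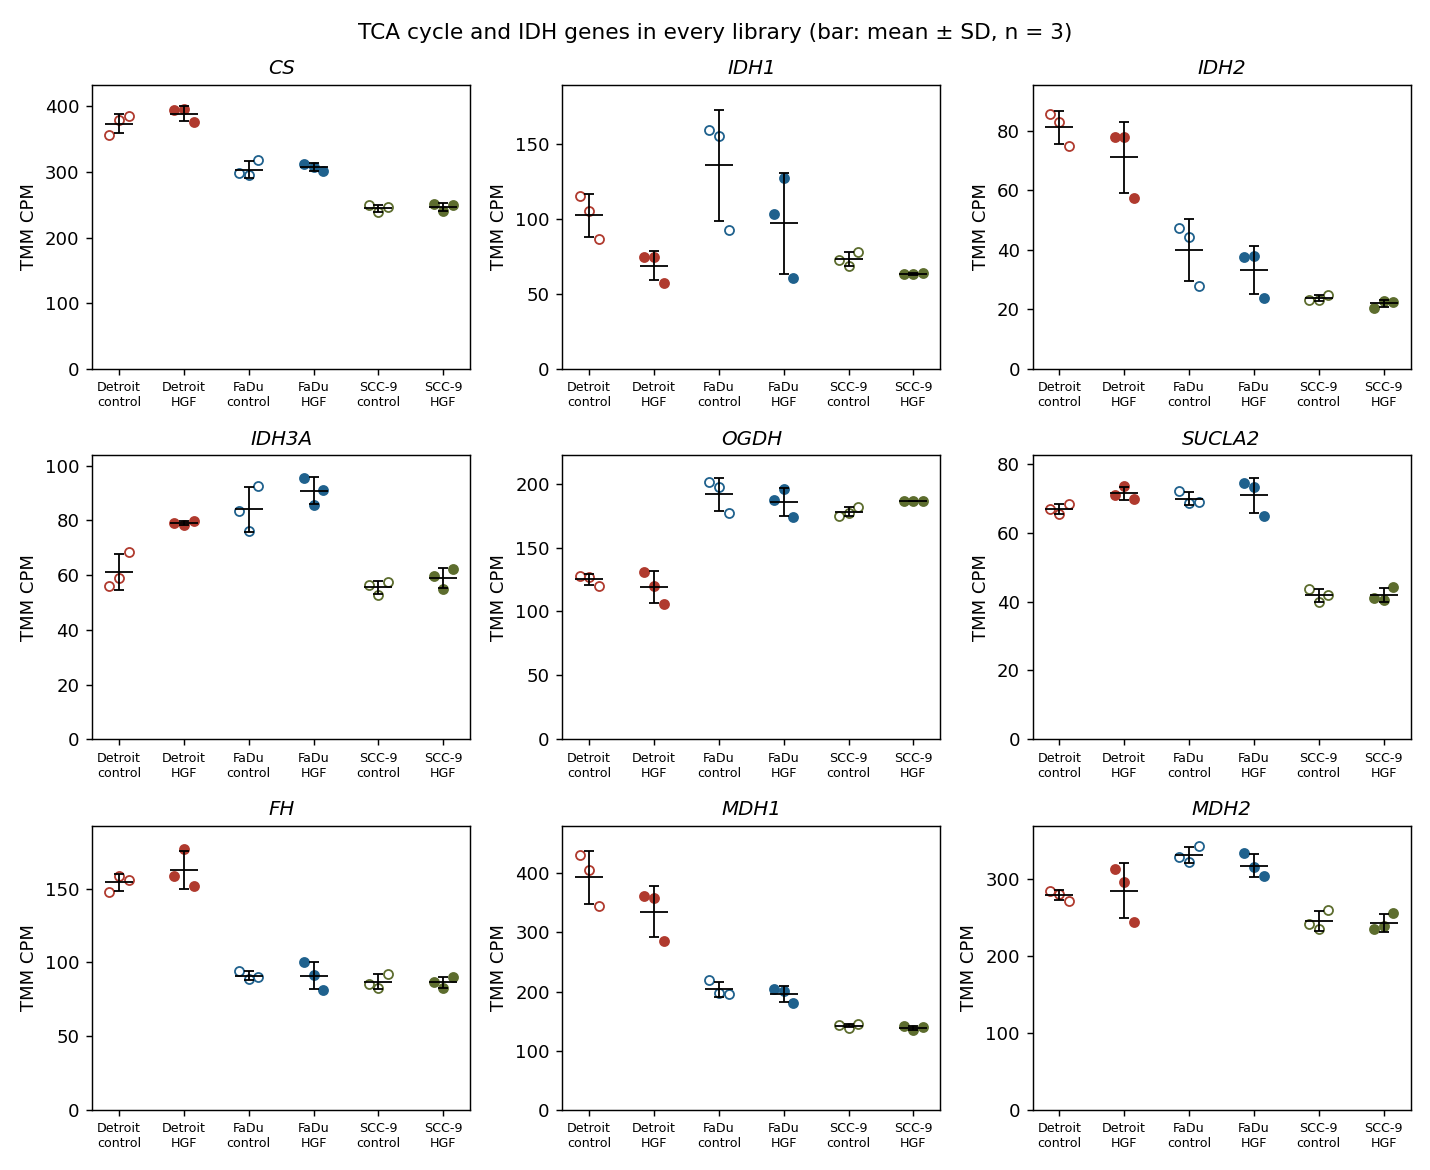
TMM-normalized CPM of each of the 9 genes in every library. Each panel is a gene, the x axis gives line and treatment, open points are control and filled points HGF libraries, and bars are mean ± SD (n = 3). Detroit 562 stands above the other lines for CS, FH, IDH2 and MDH1 and below them for OGDH, and IDH1 is lower with HGF in Detroit 562.

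HGF and control were compared within each line to ask which of these genes respond to HGF. Among the TCA cycle genes of Detroit 562, only IDH1 passed both thresholds, and it fell with HGF. A gene was called at a Benjamini-Hochberg adjusted p below 0.1 in edgeR's quasi-likelihood test together with a log2 fold change of 0.4 or more in size. Called genes made up 17.9% of all genes tested in Detroit 562, against 1 of the 9 genes here. The median log2 fold change was 0.03 over the 9 genes and -0.0056 over all genes tested.

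IDH1, the cytosolic NADP-dependent isocitrate dehydrogenase, had 115, 105 and 86.6 CPM in the control libraries 1, 2 and 3 of Detroit 562 and 74.2, 74.2 and 57.4 CPM with HGF. All HGF libraries lay below all control libraries, and libraries numbered 3 were the lowest of their group. The log2 fold change was -0.57 (SE 0.219, 95% interval -1.04 to -0.11, edgeR adjusted p = 0.0646), and IDH1 was lower in 3 of 3 same-numbered pairs. This call rested on single libraries. It was lost without control 1 (-0.48, adjusted p = 0.217), control 2 (-0.55, adjusted p = 0.149) or HGF 3 (-0.46, adjusted p = 0.214). The replicate numbers paired the libraries within each line, and in a model that adds the replicate number as a blocking factor per line (the blocked fit), in which 21.5% of all genes were called, IDH1 had the same log2 fold change of -0.57 (SE 0.0622) at an adjusted p of 4.79e-06.

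IDH2, the mitochondrial NADP-dependent enzyme, had 85.7, 83 and 75 CPM in control and 77.9, 78.1 and 57.4 CPM in HGF-treated Detroit 562. The groups overlapped, although each HGF library lay below the control library of its number. Its log2 fold change was -0.19 (95% interval -0.57 to 0.19, edgeR adjusted p = 0.462). The blocked fit gave -0.20 at an adjusted p of 0.00938, under the minimum fold.

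IDH3A had 56.1, 58.8 and 68.6 CPM in control and 79.1, 78.3 and 79.8 CPM in HGF-treated Detroit 562. All HGF libraries lay above all control libraries, and the HGF libraries differed by less than the controls. The log2 fold change of 0.37 (SE 0.0834, 95% interval 0.19 to 0.55) had an edgeR adjusted p of 0.00579 and was just under the minimum fold, so IDH3A was not called. Without control 3 it was called, at 0.46 (adjusted p = 0.00125). The other subunits of the same complex, which were picked after their values were seen, had log2 fold changes of 0.071 (IDH3B, edgeR adjusted p = 0.37) and -0.11 (IDH3G, edgeR adjusted p = 0.368).

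MDH1, the cytosolic malate dehydrogenase of the malate-aspartate shuttle, had 431, 405 and 344 CPM in control and 362, 359 and 285 CPM in HGF-treated Detroit 562. Control 3 lay below the HGF libraries 1 and 2, so the groups overlapped, but each HGF library was below its same-numbered control. The log2 fold change was -0.23 (SE 0.0915, edgeR adjusted p = 0.0744), under the minimum fold. In the blocked fit it was -0.23 (SE 0.0409, adjusted p = 0.000324). MDH2, its mitochondrial counterpart, had a log2 fold change of 0.03 (95% interval -0.13 to 0.19).

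The other genes of the cycle stayed within 0.1 on the log2 scale in Detroit 562. CS, which condenses acetyl-CoA with oxaloacetate, had 0.058 (95% interval -0.047 to 0.16). OGDH had -0.066 (-0.22 to 0.087), SUCLA2 had 0.094 (-0.037 to 0.23) and FH had 0.077 (-0.084 to 0.24). The HGF libraries of SUCLA2 (69.8 to 73.4 CPM) all lay above its controls (65.5 to 68.2 CPM), yet the edgeR adjusted p was 0.28. Each of these intervals excludes a log2 change of 0.4 in either direction.

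**Figure D2:**
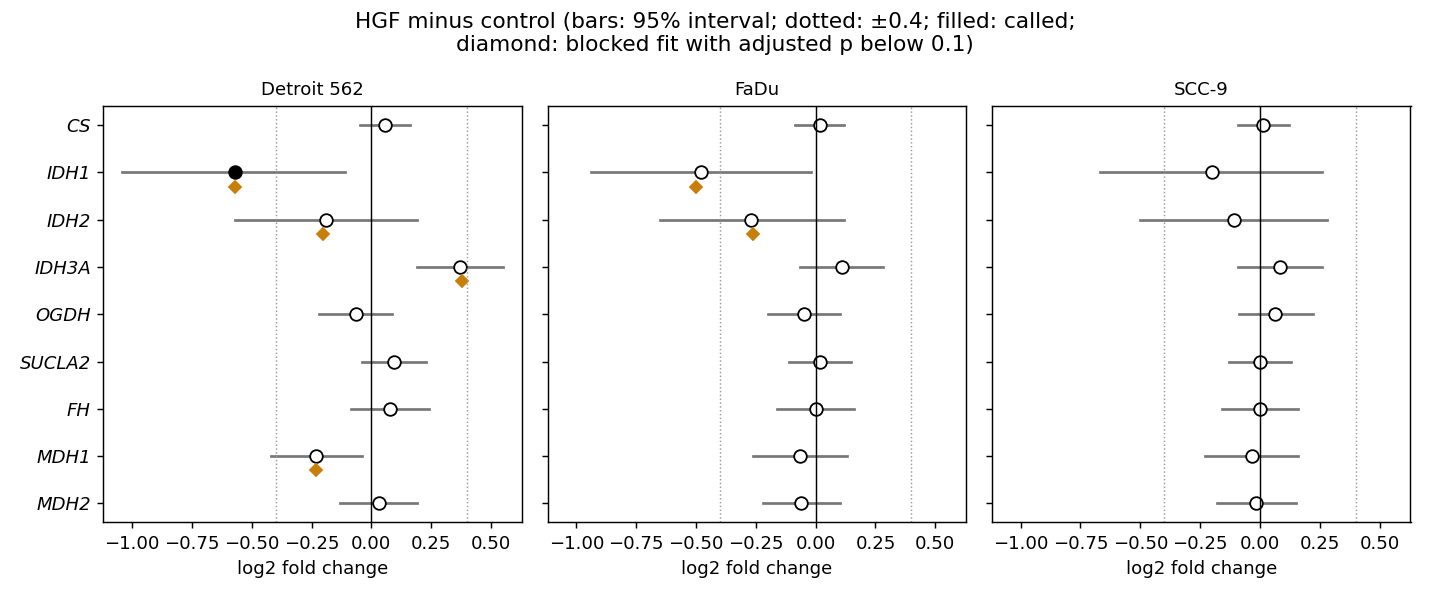
Log2 fold change of HGF over control for each gene (y axis) in each line (panels), with the 95% interval of the fit without a block. Filled circles were called, dotted lines mark 0.4 in either direction, and diamonds below the circles show the blocked fit where its adjusted p is below 0.1. IDH1 in Detroit 562 is the only filled circle, and diamonds appear for IDH1, IDH2, IDH3A and MDH1 in Detroit 562 and for IDH1 and IDH2 in FaDu.

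In FaDu, HGF led to no call among the 9 genes in the fit without a block, in which 0.0258% of all genes were called (4 genes, and 66 by DESeq2). An unadjusted p under 0.05 was found for 1 of the 9 genes, IDH1, beside 1247 of all genes tested. DESeq2 called 0 of the 9 genes. IDH1 had 159, 155 and 92.6 CPM in control and 103, 127 and 60.6 CPM with HGF. Libraries numbered 3 were far below the others of their group, the groups overlapped, and IDH1 was lower with HGF in 3 of 3 pairs. The log2 fold change was -0.48 (SE 0.218, edgeR adjusted p = 0.609), and it was -0.22 without HGF 3 and -0.72 without HGF 2. In the blocked fit IDH1 was called lower, at -0.50 (SE 0.061, adjusted p = 0.000152), where 5.6% of all genes were called.

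IDH2 followed the same order of libraries in FaDu, with 47.3, 44.4 and 28 CPM in control and 37.7, 38 and 23.9 CPM with HGF. It was lower in 3 of 3 pairs, with a log2 fold change of -0.27 (edgeR adjusted p = 0.687) without a block and -0.26 (adjusted p = 0.0114) in the blocked fit, under the minimum fold. Without a block the IDH2 value was -0.065 without HGF 3 and -0.47 without control 3. IDH3A was higher with HGF in 2 of 3 FaDu pairs, with a log2 fold change of 0.11 (95% interval -0.066 to 0.28). The remaining 6 genes ranged from -0.064 for MDH1 to 0.019 for CS and SUCLA2.

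SCC-9 gave 0 calls among the 9 genes, and 0% of all genes were called by edgeR, with 641 genes at an unadjusted p under 0.05 and 19 genes called by DESeq2. None of the 9 genes had an unadjusted p under 0.05 in SCC-9 without a block. IDH1 had 72.2, 68.7 and 78.1 CPM in control and 62.9, 63.3 and 64 CPM with HGF. All HGF libraries lay below all controls, and the log2 fold change was -0.20 (95% interval -0.67 to 0.26, edgeR adjusted p = 1). The blocked fit, which called 1.97% of all genes, gave -0.20 at an adjusted p of 0.106.

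IDH2 was also lower with HGF in 3 of 3 SCC-9 pairs, at 20.5 to 22.9 CPM against 23.1 to 24.9 CPM in control (log2 fold change -0.11, edgeR adjusted p = 1). OGDH was higher in 3 of 3 pairs, with 186 CPM in each HGF library against 175 to 182 CPM in control (log2 fold change 0.065, edgeR adjusted p = 1). The groups did not overlap for either gene, but neither difference passed the test.

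The mean of the 3 responses summarises the lines with equal weight. IDH1 fell, with a log2 fold change of -0.42 (SE 0.126, edgeR adjusted p = 0.0296), lower in 9 of 9 same-numbered pairs, and it was the only called gene of the 9, against 6.89% of all genes. Its call was lost when 1 of 6 libraries was left out: Detroit 562 control 1 (-0.39) or HGF 3 (-0.38), FaDu control 1 (-0.38), control 2 (-0.38) or HGF 3 (-0.33), or SCC-9 control 3 (-0.40, adjusted p = 0.059). Each time the IDH1 change fell under the minimum fold, while its edgeR adjusted p was 0.0358 to 0.0679. IDH2 was likewise lower in 9 of 9 pairs, at -0.19 (edgeR adjusted p = 0.214). IDH3A was higher in 8 of 9 pairs, at 0.19 (SE 0.048, edgeR adjusted p = 0.0152), under the minimum fold.

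In the blocked fit of the mean response, which called 8.8% of all genes, IDH1 had -0.43 (adjusted p = 6.79e-07). IDH2 had -0.19 (adjusted p = 0.000507), MDH1 -0.11 (adjusted p = 0.00201) and IDH3A 0.19 (adjusted p = 0.000362), all under the minimum fold. The other 5 genes had blocked adjusted p values of 0.336 or more.

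**Figure D3:**
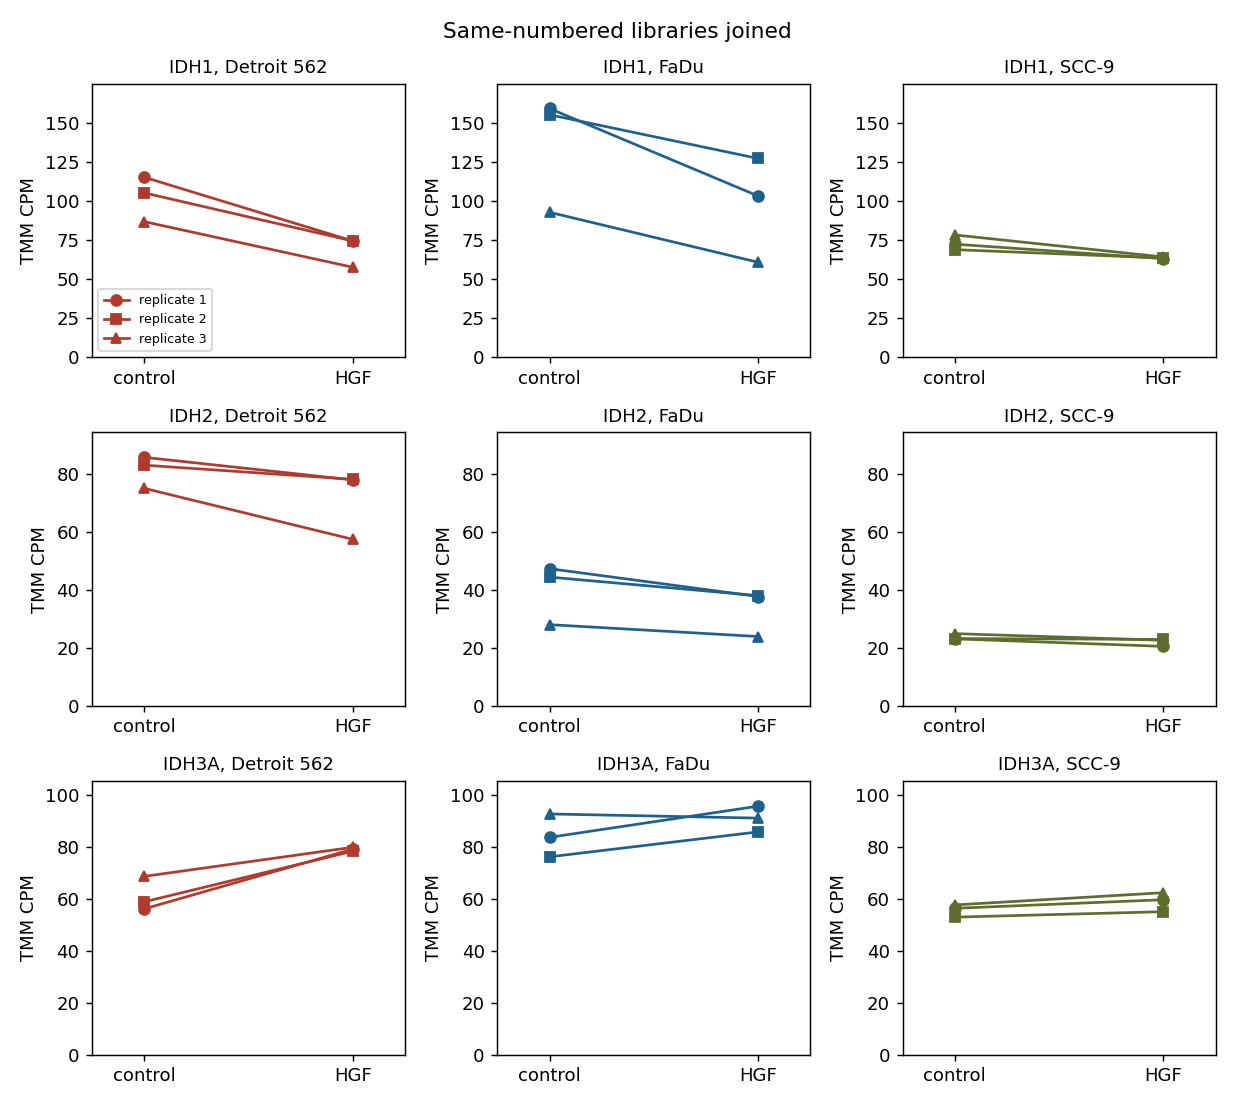
TMM-normalized CPM of IDH1, IDH2 and IDH3A (panel rows) in control and HGF libraries of each line (panel columns), with lines joining libraries of the same replicate number. IDH1 and IDH2 go down in all 9 pairs, and IDH3A goes up in 8 of 9, the exception being FaDu pair 3.

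Whether the response differed between lines was tested by the interaction of line and treatment, at an adjusted p below 0.1 with no minimum fold. Without a block, 0 of the 9 genes differed between Detroit 562 and FaDu, between Detroit 562 and SCC-9 or between FaDu and SCC-9, where 0.239%, 0.924% and 0% of all genes did. The counts behind the first 2 shares, 37 and 143 genes, ranged from 4 to 450 and from 14 to 1240 with 1 library left out. At an unadjusted p under 0.05 there were 1, 1 and 0 of the 9 genes and 1788, 2378 and 337 of all genes, and DESeq2 called 0 of the 9 genes in each comparison (261, 648 and 3 of all genes). The IDH1 response in Detroit 562 minus that in FaDu was -0.091 (95% interval -0.74 to 0.56), and minus that in SCC-9 it was -0.37 (-1.02 to 0.28). These intervals are wide enough to hold differences larger than the IDH1 response itself. Without Detroit 562 control 3, the IDH3A response was larger in Detroit 562 than in SCC-9 by 0.38 (adjusted p = 0.0734).

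The blocked fit, in which 19.1%, 26.9% and 1.32% of all genes differed, gave 2, 3 and 0 of the 9 genes. The IDH3A response was higher in Detroit 562 than in FaDu by 0.26 (SE 0.0805, adjusted p = 0.0468) and than in SCC-9 by 0.29 (SE 0.0815, adjusted p = 0.0229). MDH1 differed by -0.17 (adjusted p = 0.0729) and -0.20 (adjusted p = 0.0267) in the same comparisons. The IDH1 response was more negative in Detroit 562 than in SCC-9 by -0.37 on the log2 scale (SE 0.088, adjusted p = 0.00967). Between Detroit 562 and FaDu the blocked IDH1 difference was -0.069 (adjusted p = 0.652). The comparisons share the Detroit 562 libraries.

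For enzymes with a mitochondrial and a cytosolic form, the ratio of the pair was compared within each library, as CPM without length correction. The ratio of IDH2 to IDH1 in Detroit 562 was 0.747, 0.792 and 0.867 in control and 1.05, 1.05 and 0.999 with HGF. All HGF libraries lay above all controls, and the log2 difference was 0.37 (two-sided exact permutation p = 0.1, the smallest that 3 libraries against 3 can give). The ratio was also higher in 3 of 3 pairs in FaDu (0.296 ± 0.0079 in control and 0.353 ± 0.0481 with HGF, SD, n = 3, exact permutation p = 0.2) and in SCC-9 (0.325 ± 0.0108 and 0.347 ± 0.0184, exact permutation p = 0.2), where the groups overlapped.

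The ratio of MDH2 to MDH1 in Detroit 562 was 0.658, 0.692 and 0.788 in control and 0.865, 0.825 and 0.854 with HGF. These groups did not overlap either (log2 difference 0.25, two-sided exact permutation p = 0.1, sign-flip p = 0.25). In FaDu the ratio was 1.62 ± 0.127 in control and 1.62 ± 0.0579 with HGF, and in SCC-9 1.72 ± 0.059 and 1.74 ± 0.0857 (exact permutation p = 0.9 in both). Between untreated lines both ratios set Detroit 562 apart. Its ratio of IDH2 to IDH1 was higher than in FaDu by 1.44 and than in SCC-9 by 1.30 on the log2 scale, and its ratio of MDH2 to MDH1 was lower, with differences of -1.19 and -1.28, all without overlap (exact permutation p = 0.1). FaDu minus SCC-9 was smaller, at -0.14 for IDH2 to IDH1, also without overlap (exact permutation p = 0.1). For MDH2 to MDH1 it was -0.089, with overlap (exact permutation p = 0.3).

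**Figure D4:**
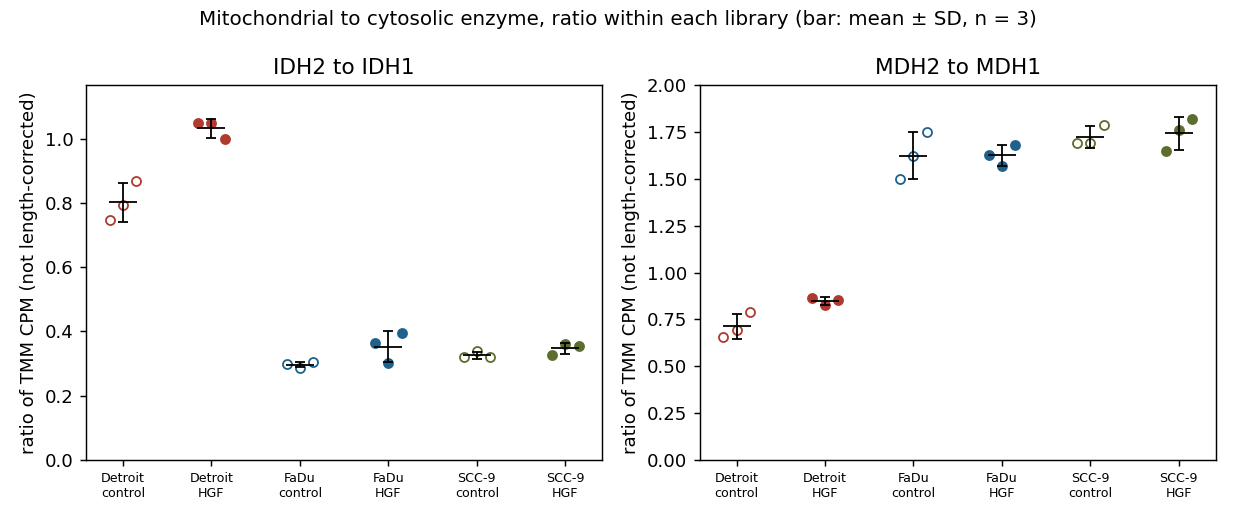
Ratio of the mitochondrial to the cytosolic enzyme within each library, IDH2 to IDH1 on the left and MDH2 to MDH1 on the right, by line and treatment (open points control, filled points HGF, bars mean ± SD, n = 3). Detroit 562 lies between 0.747 and 1.05 for IDH2 to IDH1, above all libraries of the other lines, and between 0.658 and 0.865 for MDH2 to MDH1, below all of them.

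The untreated lines differed from each other in more of these genes than HGF moved. Called genes were 5 of 9 between Detroit 562 and FaDu, 7 of 9 between Detroit 562 and SCC-9 and 6 of 9 between FaDu and SCC-9. Over all genes tested, 61%, 65.4% and 64.2% were called in these comparisons, so the shares of the 9 genes are near the background. The median log2 difference of the 9 genes was -0.064, 0.61 and 0.52, beside -0.011, -0.032 and -0.017 over all genes tested.

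IDH2 and MDH1 had the largest differences among the 9 genes between Detroit 562 and the other lines. IDH2 had 81.3 ± 5.54 CPM (SD, n = 3) in untreated Detroit 562, 39.9 ± 10.4 in FaDu and 23.7 ± 0.998 in SCC-9. Detroit 562 exceeded FaDu by 1.03 (SE 0.182, edgeR adjusted p = 8.01e-05) and SCC-9 by 1.78 (SE 0.187, edgeR adjusted p = 1.77e-07) on the log2 scale, and FaDu exceeded SCC-9 by 0.75 (edgeR adjusted p = 0.00146). No control library overlapped between lines, so the order of IDH2 was Detroit 562, FaDu and SCC-9.

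MDH1 followed the same order, with 393 ± 44.5, 204 ± 12.9 and 142 ± 2.78 CPM in Detroit 562, FaDu and SCC-9 (SD, n = 3). The log2 differences were 0.95 between Detroit 562 and FaDu (edgeR adjusted p = 8.36e-08), 1.47 between Detroit 562 and SCC-9 (2.98e-10) and 0.52 between FaDu and SCC-9 (6.82e-05), without overlap. MDH2 was ordered otherwise, at 278 ± 6.39, 331 ± 10.7 and 245 ± 12.6 CPM. For MDH2 only FaDu against SCC-9 passed both thresholds, with 0.43 (edgeR adjusted p = 7.03e-05).

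FH, which hydrates fumarate to malate, was higher in Detroit 562 than in FaDu by 0.76 (edgeR adjusted p = 1.17e-07) and than in SCC-9 by 0.83 (3.41e-08). FaDu and SCC-9 overlapped for FH, at 89 to 94.3 and 82.7 to 92.5 CPM in control. OGDH was lower in Detroit 562 (120 to 128 CPM) than in FaDu (177 to 201 CPM) by a log2 difference of -0.62 and than in SCC-9 (175 to 182 CPM) by -0.51, and FaDu and SCC-9 overlapped. SUCLA2 was lowest in SCC-9 (39.8 to 43.7 CPM), below Detroit 562 (65.5 to 68.2 CPM, log2 difference 0.68) and FaDu (68.6 to 72 CPM, 0.74). Detroit 562 and FaDu were not separated by the test for SUCLA2 (log2 difference -0.064, edgeR adjusted p = 0.367).

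CS was ordered Detroit 562, FaDu and SCC-9, with 357 to 385, 295 to 318 and 239 to 249 CPM in control. Detroit 562 exceeded SCC-9 by 0.61 (edgeR adjusted p = 6.73e-09), while the differences of 0.30 between Detroit 562 and FaDu and 0.31 between FaDu and SCC-9 were under the minimum fold. If all counts of the overlapping RP11-977G19.10 are taken off CS, these log2 differences become 0.68, 0.51 and 0.17, the same order. The difference between Detroit 562 and FaDu then lies above the minimum fold, but these values were not tested.

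IDH1 was highest in FaDu, with 92.6 to 159 CPM in control, against 86.6 to 115 CPM in Detroit 562 and 68.7 to 78.1 CPM in SCC-9. FaDu exceeded SCC-9 by 0.89 (SE 0.219, edgeR adjusted p = 0.00149). Detroit 562 exceeded SCC-9 by 0.48 (edgeR adjusted p = 0.0541), a call lost without Detroit 562 control 1 (0.39), Detroit 562 control 2 (0.46, adjusted p = 0.107), SCC-9 control 1 (0.48, adjusted p = 0.101) or SCC-9 control 2 (0.44). The difference of -0.41 between Detroit 562 and FaDu was not called (edgeR adjusted p = 0.103). It was called without Detroit 562 control 1 (-0.50), FaDu control 3 (-0.62), Detroit 562 HGF 3 (-0.41, adjusted p = 0.0997), FaDu HGF 2 (-0.41, adjusted p = 0.0719) or FaDu HGF 3 (-0.41, adjusted p = 0.0343), the last 3 of which act through the shared estimate of the spread.

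IDH3A was also highest in FaDu, with 76.1 to 92.6 CPM in control, against 56.1 to 68.6 CPM in Detroit 562 and 52.9 to 57.6 CPM in SCC-9. FaDu exceeded SCC-9 by 0.60 (edgeR adjusted p = 5.68e-06). Detroit 562 was below FaDu, with a log2 difference of -0.46 (edgeR adjusted p = 0.000101), which fell under the minimum fold without Detroit 562 control 1 (-0.40) or FaDu control 3 (-0.38). Detroit 562 and SCC-9 overlapped for IDH3A (log2 difference 0.14, edgeR adjusted p = 0.142). With HGF, IDH3A in Detroit 562 was 79.1 ± 0.759 CPM, and in FaDu 90.8 ± 4.99 CPM (SD, n = 3).

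**Figure D5:**
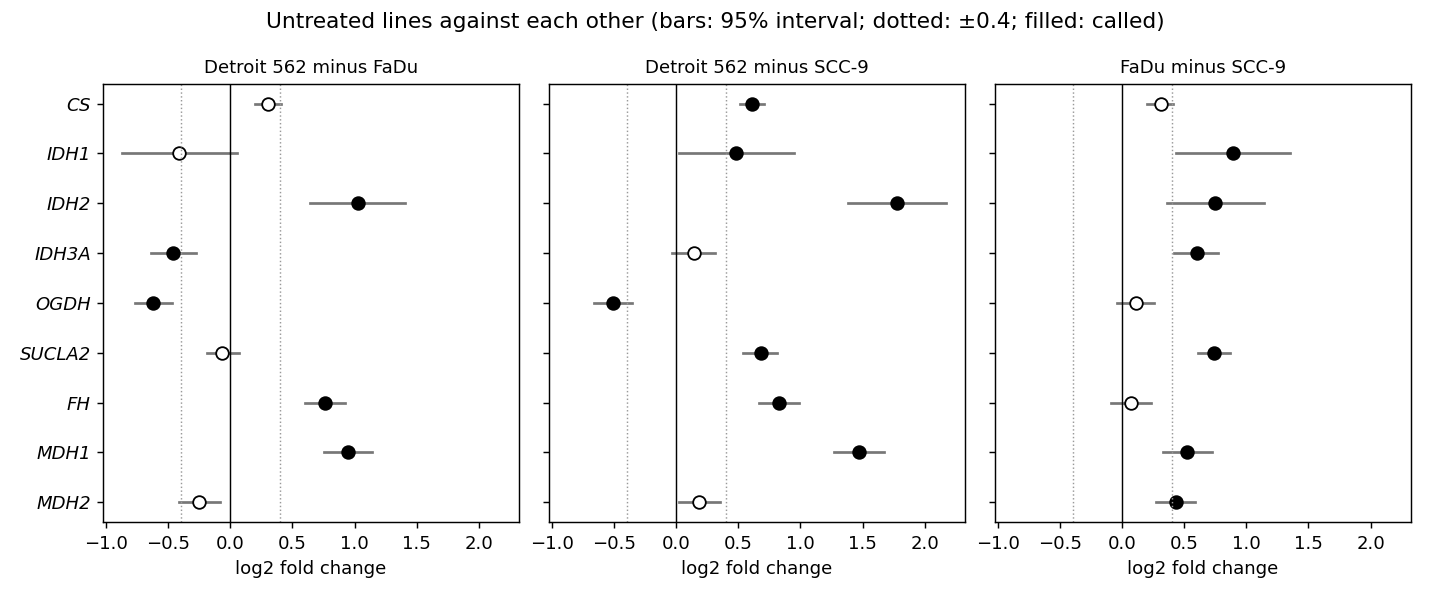
Log2 differences of the 9 genes between untreated lines, with the 95% interval of the fit. Filled circles were called and dotted lines mark 0.4 in either direction. IDH2, FH and MDH1 are higher and OGDH lower in Detroit 562 than in both other lines, and all 9 estimates are above 0 for FaDu minus SCC-9.

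Genes that work beside these 9 were described from 3 lists. Of 12 other TCA cycle subunits, 0 were called for HGF in Detroit 562, beside 17.9% of all genes. An unadjusted p under 0.05 was found for 4 of the 12, beside 5947 of the 15475 genes tested. The median log2 fold change of the 12 was -0.063. SDHD, a membrane anchor of succinate dehydrogenase, had -0.25 (edgeR adjusted p = 0.0445), under the minimum fold. In FaDu and SCC-9, 0 of the 12 were called. Without a block, an unadjusted p under 0.05 was found for 1 of the 12 in each of these lines, beside 1247 and 641 of all genes tested. In the blocked fit it was found for 3 and 2 of the 12, beside 4022 and 2390 of all genes tested.

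The list of citrate, malate and aspartate exchange held 15 genes, of which 14 were tested and 2 were called in Detroit 562, beside 17.9% of all genes. PCK1 reached at most 2 counts and was not tested. ACO1, the cytosolic aconitase and iron regulatory protein, had 37.9, 41.1 and 44.5 CPM in control and 68.0, 65.7 and 66.7 CPM with HGF. It rose by 0.70 (SE 0.174, edgeR adjusted p = 0.00958) without overlap. ACO1 had a log2 fold change of -0.19 in FaDu (edgeR adjusted p = 0.779) and -0.046 in SCC-9 (edgeR adjusted p = 1). In FaDu it was higher with HGF in 0 of 3 pairs. The blocked fit gave -0.19 in FaDu (adjusted p = 0.0873), under the minimum fold.

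ME1, the cytosolic malic enzyme and another source of NADPH, had 68.4, 65.9 and 51.1 CPM in control and 48.5, 51.4 and 39.7 CPM with HGF in Detroit 562. The groups overlapped by HGF 2 and control 3, and ME1 was lower in 3 of 3 pairs. Its log2 fold change was -0.41 (SE 0.173, edgeR adjusted p = 0.0917), a call in the lower direction. In FaDu, ME1 had -0.35 (edgeR adjusted p = 0.619) without a block and -0.37 (adjusted p = 0.00116) in the blocked fit, and in SCC-9 -0.089. In the blocked fit ME3, a mitochondrial malic enzyme, was also called lower in Detroit 562 (-0.62, adjusted p = 0.0327), on 40 to 65 counts in control and 20 to 40 with HGF.

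Of 10 mitochondrial biogenesis genes, 9 were tested and 2 were called in Detroit 562, both higher, beside 17.9% of all genes called in either direction. PPARGC1A, a coactivator of mitochondrial genes, reached at most 11 counts and was not tested. ESRRA, a nuclear receptor that acts on mitochondrial genes, rose by 0.47 (SE 0.0964, edgeR adjusted p = 0.00382), and TWNK, the mitochondrial DNA helicase, by 0.45 (SE 0.119, edgeR adjusted p = 0.0121). Over the list the median log2 fold change was 0.29 in Detroit 562, compared with 0.1 in FaDu and 0.057 in SCC-9. In FaDu and in SCC-9 without a block, 0 of the 9 tested genes were called and 0 had an unadjusted p under 0.05. The blocked fit also called 0 in either line. It gave an unadjusted p under 0.05 for 3 of the 9 in FaDu and 1 in SCC-9, beside 4022 and 2390 of all genes tested. TWNK in FaDu had 0.22 in the blocked fit (adjusted p = 0.02), under the minimum fold.

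Between untreated lines the neighbouring genes showed differences of a size not seen among the 9. ME2, a mitochondrial malic enzyme, had 1 to 6 counts in the FaDu control libraries, against 2434 to 2815 in Detroit 562 and 2880 to 3013 in SCC-9. ME3 was the reverse, with 305 to 407 counts in FaDu, 40 to 65 in Detroit 562 and 3 to 6 in SCC-9. OGDHL, a paralog of OGDH, had 179 to 274 counts in FaDu, against 10 to 11 in Detroit 562 and 5 to 7 in SCC-9. OGDHL remained far below OGDH, at 5.5 ± 1.32 CPM in untreated FaDu against 192 ± 12.7 CPM for OGDH (SD, n = 3), values that are not corrected for length.

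The partner subunits of IDH3A did not share its order. IDH3G was higher in Detroit 562 than in FaDu by 1.37 (edgeR adjusted p = 4.49e-10) and than in SCC-9 by 0.64 (3.47e-06), whereas IDH3A was lower in Detroit 562 than in FaDu. IDH3B was lower in Detroit 562 than in SCC-9 (-0.90, edgeR adjusted p = 1.85e-10) and in FaDu than in SCC-9 (-0.50, edgeR adjusted p = 3.11e-07). Of the 12 other TCA cycle subunits, 6, 8 and 9 were called between Detroit 562 and FaDu, Detroit 562 and SCC-9, and FaDu and SCC-9, beside 61%, 65.4% and 64.2% of all genes.

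Likeness of expression was described by Pearson correlation of log2 CPM over the 18 libraries after each line's mean was taken off, which leaves HGF, replicate and noise. The libraries of a pair share a replicate effect, and values are descriptions with no test. IDH1 was most like ME1 (r = 0.981), ARPIN (0.98) and CTSD (0.977), and among the 9 genes most like IDH2 (0.924). IDH3A was most like MRPS30 (0.976), a mitochondrial ribosomal protein, TCP1 (0.972) and KARS (0.969), and ran against IDH1 (-0.709) and MDH1 (-0.628). IDH2 was most like PSAP (0.967), and MDH1 most like EPHX1 (0.962). SUCLA2 and FH correlated at 0.757, and CS and IDH3A at 0.746.

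With the line means kept, the order of the lines dominated. MDH1 was then most like KEAP1 (r = 0.994), which encodes the adaptor that targets NRF2 for degradation, and CS was most like P3H2 (0.991) and LRPPRC (0.991). IDH2 and MDH1 correlated at 0.975, CS and MDH1 at 0.95, and FH and OGDH at -0.924. With 3 lines of 6 libraries each, such values mainly restate the line differences above.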

How the data were processed

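The deposited table holds raw counts, whole numbers per gene without normalization. The authors trimmed reads of stranded mRNA libraries with Cutadapt 1.16, aligned them with STAR 2.5.2b to GRCh38 with GENCODE 28 and counted reads over gene extents on the gene's strand with bedtools. These tools and versions follow the submitters' processing notes and the methods. The methods also name a later Cutadapt version beside this one. Here the counts of all 18 libraries were fitted in R 4.3.3 with edgeR 4.0.16 (TMM, filterByExpr, quasi-likelihood test, 6 group means, no block), and p values were adjusted over all 15475 genes tested. DESeq2 1.42.0, its size factors, no filter, no minimum fold, single lines, single libraries left out and replicate blocks were alternatives. CPM are TMM-normalized, the pseudocount for correlations was 0.5, and exon lengths are from GENCODE 44. Ratios were compared by exact permutation, and within a line also by sign flips of the same-numbered pairs.

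Members, lists and motifs were chosen with earlier results of these data known. All members were named, and from each list up to 4 genes, those called with the largest change first, or the 2 with the smallest p. Results for some genes of the lists are not reported here. IDH3B, IDH3G and ME3 were partly named outside this rule, after their values were seen. The deviations of control and HGF libraries of the same number correlated across genes at 0.376 to 0.636 in Detroit 562, 0.567 to 0.707 in FaDu and 0.436 to 0.546 in SCC-9, so the numbers paired the libraries within a line. Means for different numbers were -0.218, -0.31 and -0.243. They are no separate evidence, since deviations were taken from each group's own mean, which ties them to the same-number values. These correlations run across genes, which are not independent. Depth limits little here, since every member had at least 858 counts in every library.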

Additional observations from a re-analysis of the deposited data

Results flagged for a closer look

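In the blocked fit, the HGF response differed between lines for 3 genes, by the interaction of line and treatment (edgeR, adjusted p below 0.1), where 19.1% of all genes differed between Detroit 562 and FaDu and 26.9% between Detroit 562 and SCC-9. IDH3A responded more in Detroit 562 than in FaDu, by 0.26 on the log2 scale, and than in SCC-9, by 0.29. MDH1 responded lower in Detroit 562, with differences of -0.17 from FaDu and -0.20 from SCC-9, and IDH1 lower than in SCC-9, with -0.37. None of these passed without the block, where the adjusted p values were 0.408, 0.274, 0.636, 0.478 and 0.596 in the same order.

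OGDH was lower with HGF in 3 of 3 FaDu pairs and higher in 3 of 3 SCC-9 pairs, a difference of responses of -0.11 (95% interval -0.33 to 0.10). The interaction test gave an edgeR adjusted p of 1 without the block and 0.617 with it.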

How the results depend on the processing

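Of 639 gene values under other settings, 612 kept their side of the threshold, 27 passed only there, and 0 called values reversed. A value not called could change sign and still count as kept. FH for HGF in FaDu, for example, was 3.8e-05 without a block and -0.0042 in the blocked fit. With 1 library left out, 1598 of 1620 kept their side of the threshold, 15 calls were lost, 7 were gained and 0 called values reversed. These 1620 include comparisons that did not use the library left out, where it acts only through the shared fit. DESeq2, its size factors, no filter and single lines changed 0 calls among the 9 genes. With the replicate block, the genes called were 1 of 9 for HGF in FaDu, 2 for the response of Detroit 562 minus FaDu and 3 for Detroit 562 minus SCC-9. A block shared by the lines, whose numbers did not pair libraries between all lines, changed no call for HGF, the responses or the untreated lines. Without a minimum fold, 3 genes were called for HGF in Detroit 562 and 2 in the mean response (5276 and 4366 of the 15475 genes tested), and 7, 8 and 7 between the untreated lines (11857, 12413 and 12205 genes). The replicate block without a minimum fold gave 4 and 4 (8291 and 7620 genes), with 2 in FaDu (2697 genes) and 8, 9 and 7 between the untreated lines (12219, 12747 and 12533 genes). Over all genes, HGF calls in Detroit 562 ranged from 1586 to 3629 with 1 library left out. Among the 9 genes, calls then ranged from 0 to 2 for HGF in Detroit 562, from 0 to 1 in the mean response and from 0 to 1 for the response of Detroit 562 minus SCC-9, and the untreated ratio of IDH2 to IDH1 in FaDu minus SCC-9 (-0.14) ranged from -0.17 to -0.088. The cause was not tested. TMM and size factors differed by at most 0.0171 (log2) in a library. Without the block, the intervals of the IDH1 response differences were wide (SE 0.309 for Detroit 562 minus SCC-9, against 0.088 with it).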
